A study of Mus musculus with 7 samples.

Results

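The serpins described here are clade B serpins of mouse, intracellular members of the serine protease inhibitor superfamily, several of which inactivate granzymes. They were chosen by gene symbol, with earlier results of these data known. The 7 symbols named were Serpinb9, Serpinb9b, Serpinb6a, Serpinb6b, Serpinb1a, Serpina3f and Serpina3g. For 5 of them the platform annotation used here lists a probe with 1 symbol, out of 19752 genes measured in all. Serpina3f and Serpina3g were not analysed here, so the genes with values are all of clade B. The arrays carried RNA of splenic cells enriched for natural killer (NK) cells by EasySep negative selection, from 6-week-old male C57BL/6 mice. Such selection depletes other cell types, though markers of some, such as Cd79a of B cells, were still bright. In 4 arrays (IL2 replicates 1 to 4) the cells had been cultured for 8 h with interleukin 2 (IL2) at 250 U/ml, and in 3 arrays (untreated replicates 2 to 4) they were untreated, at the same 8 h. The labels name no genetic change in any group, and whether the replicates were separate animals or cultures is not stated, so the p-values speak only of the spread between these arrays.

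A serpin presents an exposed reactive centre loop to its target protease, which cuts the loop and is then trapped in a covalent complex. Killer lymphocytes store granzymes, the serine proteases that perforin lets into target cells, and clade B serpins in the cytosol of the killer cell are known to protect it from granzymes that leak from its own granules. Serpinb9 (SPI6, the mouse counterpart of human PI-9) inhibits granzyme B, Serpinb6b has been described as an inhibitor of mouse granzyme A, and Serpinb9b as an inhibitor of mouse granzyme M. Serpinb6a inhibits trypsin-like proteases and cathepsin G, and Serpinb1a inhibits the neutrophil proteases encoded by Elane, Ctsg and Prtn3. In the mouse these clade B genes lie together on chromosome 13.

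After 8 h with IL2, 3 of the 5 serpins rose and 0 fell. Serpinb9b rose 7.28-fold (95% interval 5.14 to 10.3), Serpinb9 5.72-fold (4.13 to 7.91) and Serpinb6b 2.90-fold (2.27 to 3.70), while Serpinb6a and Serpinb1a did not pass the test. The test was limma's moderated fit over all 19752 genes on log2 intensity, with a Benjamini-Hochberg adjusted p under 0.05 as the threshold. By it 2.08% of all genes were higher and 0.901% lower with IL2 (410 and 178 genes, or 694 and 577 after the arrays were quantile normalized again). The median log2 fold change was 1.54 over the 5 serpins and -0.01 over all genes. Among the 5 serpins, the IL2 arrays lay entirely above the untreated arrays for 3 and entirely below for 0, against 6.25% and 3.38% of all genes. Since earlier results were known when the serpins were chosen, these shares describe the contrast and do not test it.

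**Figure D1:**
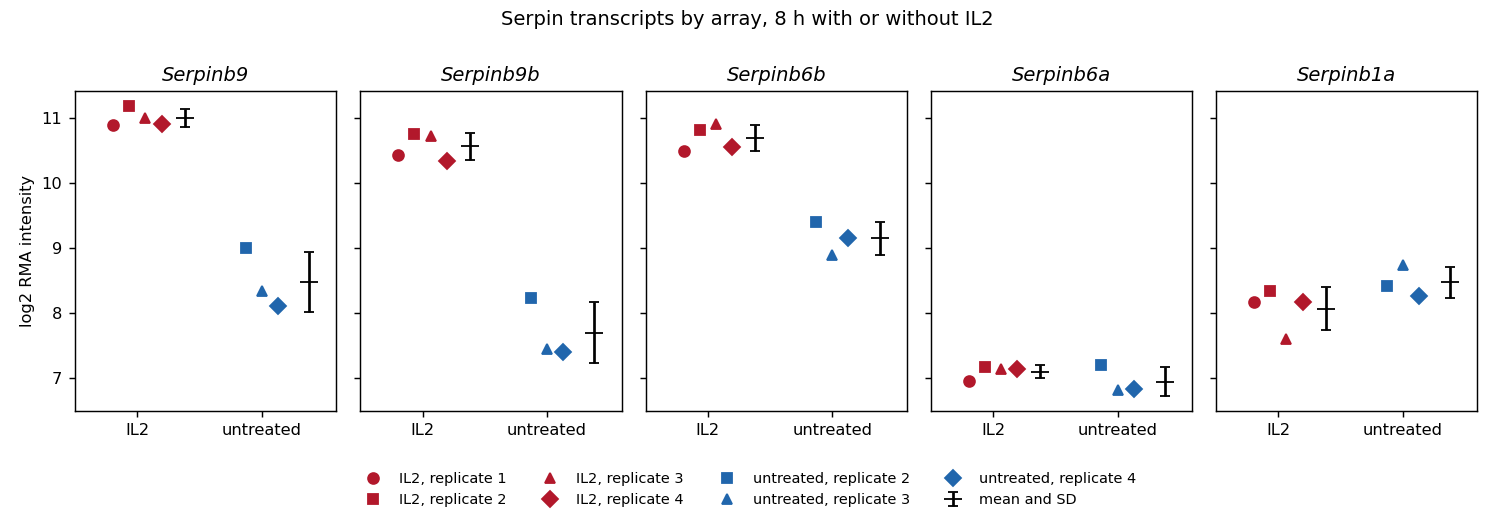
Log2 RMA intensity (vertical axis) of each serpin in the 4 IL2 arrays (red) and the 3 untreated arrays (blue). Symbols mark replicate numbers, and bars give the mean and SD. Serpinb9, Serpinb9b and Serpinb6b have every IL2 array above every untreated array, whereas the groups overlap for Serpinb6a and Serpinb1a.

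Upstream sequences are shown for the serpins with a RefSeq promoter entry, to set those that rose beside one that did not pass the test. The 250 bases before the annotated start are given 5′ to 3′ in the direction of the gene (RefSeq, GRCm38.p6). Serpinb9 (chr13:33004291-33004540, plus strand), Serpinb9b (chr13:33027164-33027413, plus strand) and Serpinb6b (chr13:32965011-32965260, plus strand) rose with IL2, and Serpinb6a (chr13:34002795-34003044, minus strand, the first of its listed starts) did not pass the test. Capitals mark matches to TTCNNNGAA, the form of site bound by STAT factors, or to GAAANNGAA, the core of the interferon-stimulated response element, on either strand.
Serpinb9: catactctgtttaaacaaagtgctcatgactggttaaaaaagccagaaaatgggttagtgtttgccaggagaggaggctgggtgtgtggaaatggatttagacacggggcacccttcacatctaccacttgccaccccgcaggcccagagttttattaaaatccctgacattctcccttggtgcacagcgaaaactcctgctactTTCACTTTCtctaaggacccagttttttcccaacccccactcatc
Serpinb9b: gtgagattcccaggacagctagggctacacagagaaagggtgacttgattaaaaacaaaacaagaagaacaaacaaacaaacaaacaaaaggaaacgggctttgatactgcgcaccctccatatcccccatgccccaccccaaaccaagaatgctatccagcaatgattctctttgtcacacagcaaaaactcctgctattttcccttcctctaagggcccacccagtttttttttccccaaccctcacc
Serpinb6b: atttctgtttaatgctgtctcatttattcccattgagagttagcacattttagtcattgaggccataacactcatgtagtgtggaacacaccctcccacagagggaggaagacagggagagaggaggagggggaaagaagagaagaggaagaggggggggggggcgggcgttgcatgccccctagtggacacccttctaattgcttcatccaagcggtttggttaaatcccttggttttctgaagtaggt
Serpinb6a: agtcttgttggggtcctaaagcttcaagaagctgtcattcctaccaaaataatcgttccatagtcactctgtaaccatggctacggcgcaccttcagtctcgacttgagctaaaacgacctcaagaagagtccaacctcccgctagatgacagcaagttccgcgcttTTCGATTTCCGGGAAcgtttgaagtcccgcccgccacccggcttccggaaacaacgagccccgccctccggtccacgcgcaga

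Of 32851 promoter windows in the table (300 bases each, 250 before and 50 after the start), 8.30% held TTCNNNGAA and 8.56% held GAAANNGAA on either strand. The Serpinb9 window held 1 match to GAAANNGAA, on the strand opposite to the gene, at bases -45 to -37 from the start. The Serpinb9b and Serpinb6b windows held no match to either motif. The first Serpinb6a window held GAAANNGAA at -83 to -75 and TTCNNNGAA at -77 to -69, which overlap, and TTCNNNGAA again at bases 21 to 29 after the start. Its second window held GAAANNGAA at bases 5 to 13 after the start. Neither TGANTCA, the AP-1 form, nor CACGTG, the E-box bound by MYC, was found in a window of these 4 genes, against 7.81% and 7.15% of all windows. None of the 4 motifs was found in the windows of all 3 genes that rose. With each motif in 7.15% to 8.56% of all windows, few sets of 3 genes would share one. Sites outside these 300 bases or of another form were not searched, so this says little about how these genes are controlled. Of the 6 pairs of upstream stretches, Serpinb9 and Serpinb9b were the most alike in a global alignment. They had 163 of 250 bases identical and a longest shared run of 13 bases. The other 5 pairs had 132 to 150 identical bases and longest runs of 7 to 9. Stretches of unrelated genes were not aligned, so the identity that such stretches would reach is not known here.

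Serpinb9, the granzyme B inhibitor (transcript cluster 10404429), had log2 intensities of 10.89, 11.19, 11.003 and 10.90 in IL2 replicates 1 to 4, against 9.0, 8.34 and 8.11 in untreated replicates 2 to 4. The IL2 arrays lay close together, and untreated replicate 2 was the highest of the untreated arrays. The means were 10.99 ± 0.14 (SD, n = 4) with IL2 and 8.48 ± 0.46 (n = 3) without, a log2 fold change of 2.52 (adjusted p = 0.00122 in limma, SE 0.20).

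Serpinb9b (transcript cluster 10404439) had log2 intensities of 10.44, 10.76, 10.72 and 10.34 in IL2 replicates 1 to 4, against 8.24, 7.46 and 7.41 in untreated replicates 2 to 4. Again the groups did not overlap and untreated replicate 2 stood highest among the untreated arrays. The means were 10.56 ± 0.21 (SD, n = 4) with IL2 and 7.70 ± 0.46 (n = 3) without, a log2 fold change of 2.86 (adjusted p = 0.00109 in limma, SE 0.22).

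Serpinb6b (transcript cluster 10404422) had log2 intensities of 10.49, 10.81, 10.90 and 10.55 in IL2 replicates 1 to 4, against 9.41, 8.89 and 9.15 in untreated replicates 2 to 4. The lowest IL2 array was above the highest untreated array. The means were 10.69 ± 0.20 (SD, n = 4) with IL2 and 9.15 ± 0.26 (n = 3) without, a log2 fold change of 1.54 (adjusted p = 0.00244 in limma, SE 0.15).

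Serpinb6a (transcript cluster 10408600) had log2 intensities of 6.95, 7.18, 7.14 and 7.14 in IL2 replicates 1 to 4, against 7.20, 6.81 and 6.83 in untreated replicates 2 to 4. Untreated replicate 2 was above every IL2 array, and IL2 replicates 3 and 4 held exactly equal values. The log2 fold change was 0.15 (adjusted p = 0.678 in limma, SE 0.12, 95% interval -0.12 to 0.43). Serpinb1a (transcript cluster 10408557) had log2 intensities of 8.16, 8.35, 7.60 and 8.17 in IL2 replicates 1 to 4, against 8.42, 8.74 and 8.27 in untreated replicates 2 to 4. IL2 replicate 3 was the lowest array, and IL2 replicate 2 overlapped the untreated range. The log2 fold change of Serpinb1a was -0.41 (adjusted p = 0.431 in limma, SE 0.19, 95% interval -0.85 to 0.04).

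The titles of replicates 3 and 4 name the 8 h and those of replicates 1 and 2 do not. Within the 4 arrays that name the time, the log2 fold changes were 2.73 for Serpinb9, 3.10 for Serpinb9b and 1.70 for Serpinb6b. Within the other 3 arrays, of which 1 was untreated, they were 2.04, 2.36 and 1.24 in the same order. Over the first set limma still called Serpinb9 and Serpinb9b but not Serpinb6b (adjusted p = 0.0686), and over the second it called 0 genes in all (2630 at an unadjusted p under 0.05), with all 3 serpins at an unadjusted p under 0.05. Serpinb1a was lower in both sets (-0.62 and -0.17), and Serpinb6a differed in sign between them (0.32 and -0.14). The 3 calls held in all 7 fits that lacked 1 array, with log2 fold changes of 2.33 to 2.77 for Serpinb9, 2.72 to 3.13 for Serpinb9b and 1.41 to 1.66 for Serpinb6b.

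**Figure D2:**
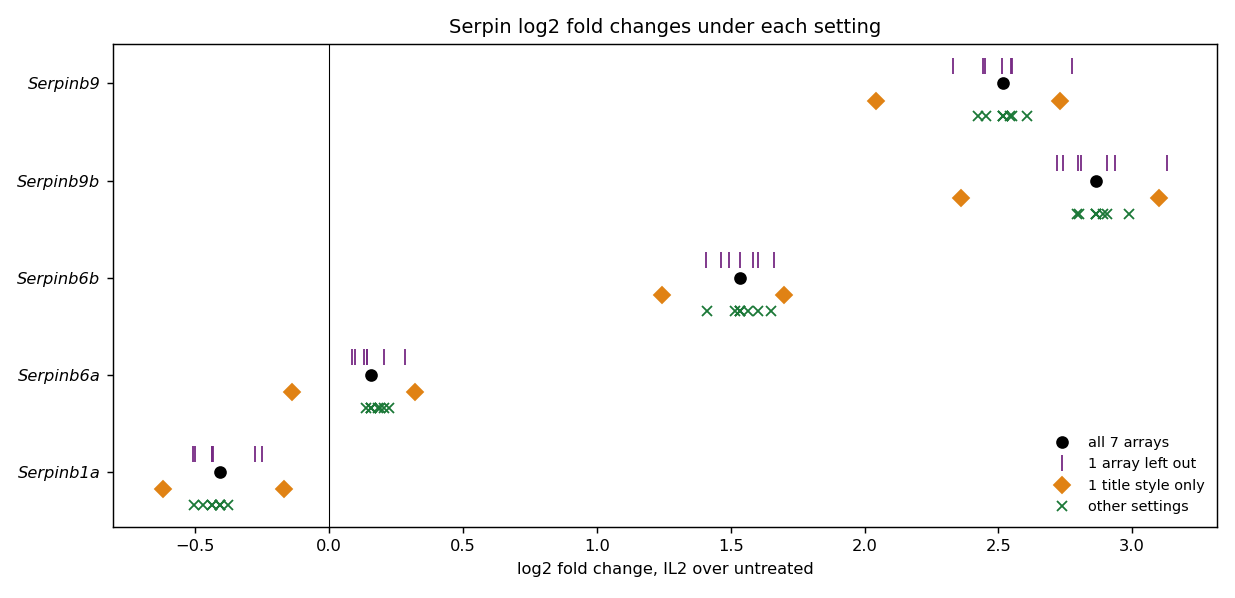
Log2 fold change of IL2 over untreated (horizontal axis) for each serpin under every setting tried. Black circles use all 7 arrays, purple bars leave out 1 array, orange diamonds use the arrays of 1 title style, and green crosses are the other settings. Serpinb9, Serpinb9b and Serpinb6b are above 1.2 in all of them, whereas Serpinb6a crosses 0 in 1 title style and Serpinb1a is below 0 in all of them.

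The size of the change differed within both pairs of close relatives, slightly for Serpinb9 and Serpinb9b, which both rose, and more for Serpinb6a and Serpinb6b. For each array the log2 value of one gene was subtracted from that of its relative, and the groups were compared by a two-sided exact permutation test over the 7 arrays, whose smallest possible p is 0.0286. The pairs tested were 2, and the p-values were adjusted over them. Serpinb6a minus Serpinb6b averaged -3.58 ± 0.15 (SD, n = 4) with IL2 and -2.20 ± 0.12 (n = 3) without, a difference of -1.38 (SE 0.10, exact p = 0.0286, adjusted p = 0.0286), so that the difference between IL2 and untreated cells was larger for Serpinb6b than for Serpinb6a. Serpinb9 minus Serpinb9b averaged 0.43 ± 0.12 with IL2 and 0.78 ± 0.09 without, a difference of -0.35 (SE 0.08, exact p = 0.0286, adjusted p = 0.0286, n = 4 and n = 3), so that Serpinb9b rose slightly more than Serpinb9. In both pairs the IL2 arrays lay entirely below the untreated arrays. Serpinb6a was near the array median, at linear intensities of 112 to 147 where the array medians were 121 to 131. A change at such a low intensity may be understated, and this was not tested. A probe set of one gene may also bind transcripts of its relative, and the part of this in these values was not tested.

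**Figure D3:**
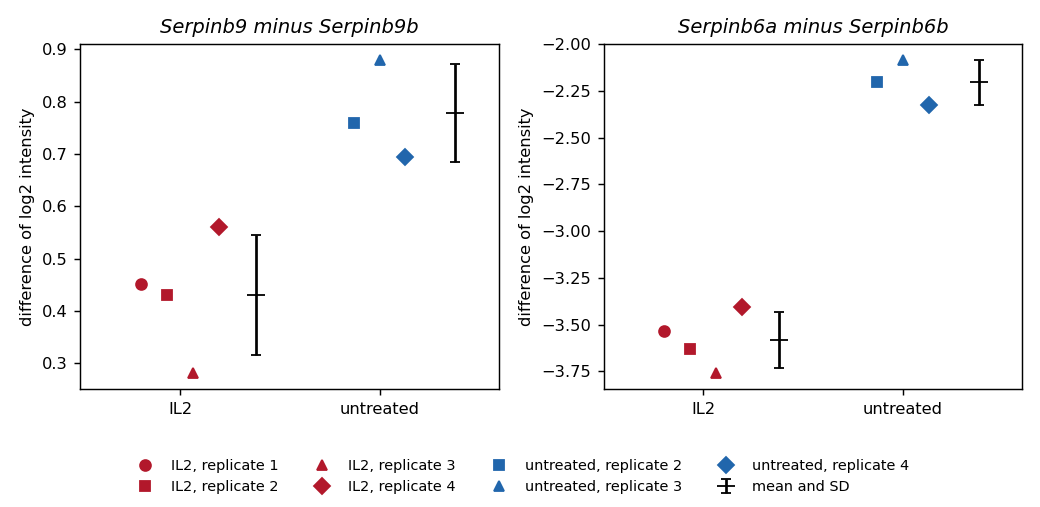
Difference of log2 intensity within each array for Serpinb9 minus Serpinb9b (left) and Serpinb6a minus Serpinb6b (right), in IL2 (red) and untreated (blue) arrays, with the mean and SD. The axes do not start at 0. In both panels every IL2 array is below every untreated array.

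The 3 serpins that rose were consecutive among the measured serpins of chromosome 13. In the order of RefSeq (GRCm38.p6) the 13 single-symbol serpin genes measured there run Serpinb1a, Serpinb1c, Serpinb6b, Serpinb9, Serpinb9b, Serpinb1b, Serpinb9c, Serpinb9d, Serpinb9e, Serpinb6d, Serpinb6e, Serpinb6c and Serpinb6a, with 0 other measured genes between them. Of these, 3 were higher and 0 lower with IL2, against 2.08% and 0.901% of all genes. The nearest measured neighbours on either side, Serpinb1c and Serpinb1b, had log2 fold changes of -0.14 (95% interval -0.38 to 0.10) and -0.09 (-0.32 to 0.14). Both were dim, below the array median on every array, so their small differences say little about whether these genes respond to IL2. The same holds for the other uncalled genes of this order except Serpinb1a and Serpinb6a. Whether the rise is confined to Serpinb6b, Serpinb9 and Serpinb9b within this cluster therefore cannot be told from these values. The 3 transcript clusters shared by Serpinb9d, Serpinb9e, Serpinb9f and Serpinb9g, which cannot be given to 1 gene, had mean log2 differences of 0.08, 0.12 and 0.11 and were not tested. In the second Serpinb cluster, of 11 measured genes on chromosome 1, 0 were higher and 0 lower. With 2.08% higher and 0.901% lower over all genes, a count of 0 among 11 genes says little about this cluster. All of its measured genes but Serpinb10 and Serpinb8 were dim as well, with mean log2 intensities of 3.12 to 5.57.

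**Figure D4:**
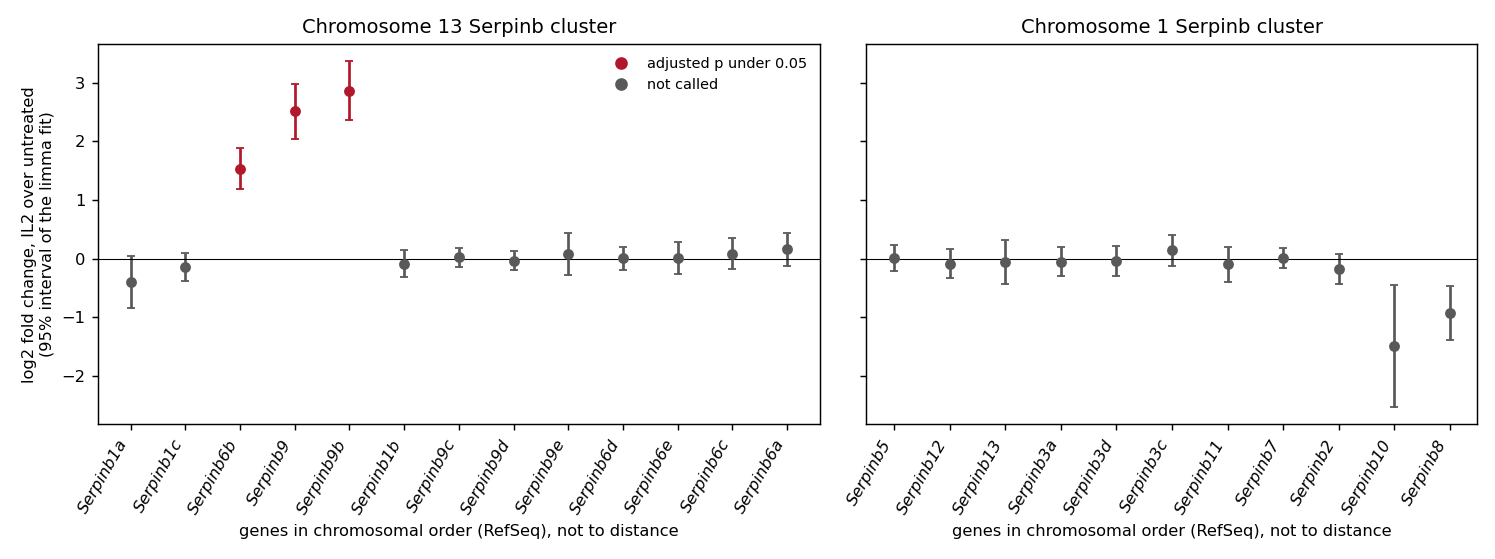
Log2 fold change of IL2 over untreated (vertical axis) with its 95% interval for the measured serpin genes of chromosome 13 (left) and chromosome 1 (right), in chromosomal order and not to distance. Red marks genes past the test. Serpinb6b, Serpinb9 and Serpinb9b stand together above 1, while Serpinb10 and Serpinb8 lie below 0 without passing it.

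Beyond the 5 serpins, 43 other single-symbol serpin genes were measured, and limma called 0 of them in either direction, with 3 at an unadjusted p under 0.05. Over all 19752 genes, limma called 2.08% higher and 0.901% lower, with 2662 at an unadjusted p under 0.05. With such shares, a count of 0 among 43 genes says little about these serpins. The median log2 fold change of the 43 was -0.04, and 38 of them were below the array median on every array. The largest differences were in Serpinb10, Serpinb8 and Serpini1. Serpinb10, which is expressed in bone marrow and myeloid cells, had 5.52, 5.37, 5.89 and 5.68 in IL2 replicates 1 to 4, against 5.86, 7.97 and 7.49 in untreated replicates 2 to 4, a log2 fold change of -1.49 (adjusted p = 0.169 in limma, SE 0.45). Untreated replicate 2 lay within the IL2 range, and without it the log2 fold change of Serpinb10 was -2.11 (limma adjusted p = 0.00692). Serpinb8, whose human counterpart inhibits furin, had 5.97, 5.97, 6.66 and 6.39 in IL2 replicates 1 to 4, against 6.90, 7.35 and 7.28 in untreated replicates 2 to 4, a log2 fold change of -0.93 (adjusted p = 0.0536 in limma, SE 0.20). The groups of Serpinb8 did not overlap. It passed the test with the title style as a block (-0.84, limma adjusted p = 0.00555) and after quantile normalization again (-0.92, limma adjusted p = 0.0234). It stayed uncalled under 11 of 16 alternatives, among them every fit that lacked 1 array (limma adjusted p = 0.0523 to 0.208). Serpini1, the neuroserpin gene, had a log2 fold change of 0.24 (adjusted p = 0.352 in limma, SE 0.10).

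Proteases of killer cells, lysosomes and neutrophils, some of them targets of these serpins, moved in both directions. Of 17 listed granzymes, cathepsins and neutrophil proteases, 3 were higher and 2 lower with IL2. Gzmb, the target of Serpinb9, rose by 5.07 on the log2 scale (adjusted p = 0.000234 in limma, SE 0.28), against 2.52 for its inhibitor. Gzma, the protease linked to Serpinb6b, had a log2 fold change of 1.81 (adjusted p = 0.052 in limma, SE 0.38), and Gzmm, linked to Serpinb9b, one of 0.07 (adjusted p = 0.809 in limma, SE 0.08). Gzmm held the same value, 6.40, on 5 of the 7 arrays (IL2 replicates 2 to 4 and untreated replicates 2 and 3), so its fold change says little about the level of its transcript. Gzmc, a granzyme of activated killer cells, rose by 2.15, and Ctsc, the peptidase that activates granzymes, by 0.69, while Gzmk and the lysosomal cathepsin gene Ctsl fell by 0.80 each. These 4 calls were near the threshold. That of Ctsc (adjusted p = 0.0493 in limma) held under 6 of 17 alternatives and was lost after quantile normalization again (limma adjusted p = 0.0519) and with median centring (limma adjusted p = 0.0503), while those of Gzmc, Gzmk and Ctsl held under 8 of 16, 10 of 17 and 9 of 17. Elane, Ctsg and Prtn3, the targets of Serpinb1a, had log2 fold changes of -0.50, -0.57 and -0.36 that did not pass the test. Prf1, which encodes perforin, rose by 2.83 (SE 0.28). The count of proteases higher was 1 when untreated replicate 3 or 4, or any of IL2 replicates 2 to 4, was left out, and the count lower was 0 without any one of these arrays and 1 without untreated replicate 2. Gzma passed the test with the title style as a block (limma adjusted p = 0.00512) and after quantile normalization again (limma adjusted p = 0.0248).

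Of 16 measured genes on the interferon-gamma axis, 10 were higher and 1 lower (Ifngr2, a receptor chain gene, at -0.84), and of 8 on the STAT5 axis, which signals from the IL2 receptor, 6 were higher and 0 lower. Cxcl9 and Cxcl10, chemokine genes induced by interferon, rose by 4.54 and 3.46, Ifng by 3.47, and Socs1, a feedback inhibitor of cytokine signalling, by 2.84. On the STAT5 axis the survival gene Bcl2 rose by 2.21, the receptor chain gene Il2ra by 2.01 and the feedback gene Cish by 1.94. The count on the interferon-gamma axis was 5 without IL2 replicate 2 or 3 or untreated replicate 4, and 6 without IL2 replicate 4 or untreated replicate 3. Ifngr2 lost its call, and the count lower was 0, without IL2 replicate 2 or 3 or untreated replicate 2 or 4 (limma adjusted p = 0.0822 to 0.122).

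Serpinb9 and Serpinb9b were among the closest matches of each other. Over the 7 arrays, the correlation of log2 intensities (Pearson's r) was 0.998 between Serpinb9 and Serpinb9b, 0.982 between Serpinb9 and Serpinb6b, 0.986 between Serpinb9 and Gzmb, and 0.982 between Serpinb9 and Prf1. Among 9875 other genes at or above the median signal, those most like Serpinb9 were Id2 (0.998), a transcriptional regulator needed for NK cells, Serpinb9b and Pkib (0.997), an inhibitor of protein kinase A. Those most like Serpinb9b were Pkib, Serpinb9 and Id2, and those most like Serpinb6b were Ergic1 (0.996), Icos (0.995) and the guanylate-binding protein gene Gbp5 (0.994). All 5 of these genes that are not serpins rose, by 0.86 to 2.76 on the log2 scale. Their choice by likeness to serpins that rose made this likely, so it is not a separate result. Serpinb6a was most like Luc7l (0.991) and Serpinb1a most like Grip2 (0.963), of which neither passed the test and Grip2 stayed between 6.97 and 7.01 on every array. These values describe the 7 arrays, which share the step between IL2 and untreated cells.

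Markers of several cell types were measured in these samples and some moved with IL2. Of 8 NK markers, 2 were higher and 0 lower, and their summed linear intensity was 8995 to 11473 over the IL2 arrays and 4005 to 6452 over the untreated arrays. Of 11 monocyte and macrophage markers, 0 were higher and 8 lower, with sums of 3771 to 5467 with IL2 and 12972 to 13825 without. Among those lower were Lyz2 (-1.77), which encodes lysozyme, and Csf1r (-1.91), the receptor for the macrophage growth factor. For 10 neutrophil markers (0 higher, 1 lower) the sums were 5384 to 8172 with IL2 and 9129 to 12881 without, for 7 B cell markers (0 higher, 1 lower) 12280 to 13079 with IL2 and 14524 to 16030 without, and for 8 dendritic cell markers (0 higher, 1 lower) 1618 to 1964 with IL2 and 1946 to 2393 without. For 8 T cell markers (0 called) they were 1650 to 2901 with IL2 and 1707 to 2761 without, for 6 basophil and mast cell markers (0 called) 1114 to 1872 with IL2 and 1387 to 1740 without, and for 3 red cell precursor markers (0 called) 266 to 306 with IL2 and 241 to 296 without. No marker is listed at 0, and 2 markers each of the monocyte and macrophage, dendritic cell, basophil and mast cell, and red cell precursor lists lay below the array median on every array. Without 1 of IL2 replicates 2 and 3 or untreated replicates 3 and 4, the count of monocyte and macrophage markers lower was 3 to 5. Leaving out untreated replicate 2 gave 4 NK markers higher, and leaving out untreated replicate 3 or 4 gave 1. The count of B cell markers lower was 0 without IL2 replicate 2 or 3 or any 1 of the untreated arrays, and 3 after quantile normalization again. The count of neutrophil markers lower was 4 with the replicate block, 5 with the title style block and 3 after quantile normalization again, which also gave 2 dendritic cell markers lower. Array intensities of a mixed sample cannot tell fewer cells of a type from less RNA per cell, and the part of cell composition in the changes of the serpins was not tested. Ncr1, which encodes the NK receptor NKp46, was bright in every array (11.36 to 11.52 with IL2 and 9.12 to 9.46 without), and so was Cd79a of B cells (11.85 to 12.02 with IL2 and 11.91 to 12.20 without).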

How the data were processed

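RNA of 7 samples was hybridised to Affymetrix Mouse Gene 1.0 ST arrays after TriZol extraction and amplification with the Ambion WT Expression kit, per the labels. For each array the authors deposited an intensity per transcript cluster. The submitters' processing notes name Affymetrix Power Tools and RMA, and their versions and settings are not given in the sources used here. Intensities lay on a linear scale, with medians of 121 to 131 per array, and were taken to log2 with no pseudocount. RMA is meant to scale arrays to each other, but the deposited arrays were not fully alike. Their 75th percentiles ran from 278.5 (untreated replicate 3) to 350.4 (IL2 replicate 4). Values do not compare between probes, and the number of arrays limits the precision.

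Of 24922 probes, 21425 had 1 gene symbol. The brightest probe of a gene was kept, giving 19752 genes with no filter on signal, and each of the 5 serpins had 1 probe. Groups came from the sample titles. The fit was limma 3.58.1 under R 4.3.3 with 1 factor, eBayes defaults and Benjamini-Hochberg adjustment over all genes. The fit was tested on simulated data of the same size. An interval is the 95% interval of that fit. RefSeq gene order was used for 19677 genes, and upstream sequences were aligned with Biopython 1.88.

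The members and lists were chosen with earlier results of these data known. Named genes were the members, other serpins that were called or had the 3 largest differences, called genes with the largest changes of each list, and the 3 genes most like each member. Targets of the serpins that were not called, Ncr1 and Cd79a were named after their values were seen. The planned comparison of Serpina3g with Serpina3f was not run, since neither was analysed here. Alternatives were the replicate number or title style as a block, a signal filter, quantile normalization again, median centring, another variance model, array weights (statmod 1.5.0), the mean of all probes, each title style alone and leaving out each array. No column of values was left out.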

Additional observations from a re-analysis of the deposited data

Results flagged for a closer look

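Among the 4 IL2 arrays, 1 array stood apart from the others by Dixon's criterion for 3 of 25 genes examined. Chance marks about 1 in 20 groups. Serpinb6a was lowest in IL2 replicate 1, at a log2 intensity of 6.95 against 7.14 for the nearest array. Gzmm was highest in IL2 replicate 1, at 6.57 against 6.40 in each of the other 3, which held equal values, as did untreated replicates 2 and 3. Prss57 was lowest in IL2 replicate 2, at 5.42 against 6.11 for the nearest array.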

How the results depend on the processing

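The rises of Serpinb9, Serpinb9b and Serpinb6b kept their direction under all 17 alternatives, with log2 fold changes of 2.04 to 2.77, 2.36 to 3.13 and 1.24 to 1.70, and their calls under 16, 16 and 15 of them. The exceptions were the 2 sets by title style. Over the arrays that name the time, Serpinb6b (1.70) lost its call, and 81 genes were higher and 22 lower in all. Over the 3 other arrays, Serpinb9 (2.04), Serpinb9b (2.36) and Serpinb6b (1.24) lost theirs, 0 of the 5 serpins and 0 of all genes were called by limma (2630 genes at an unadjusted p under 0.05), the serpin median was 1.24, and the signs of Serpinb6a (-0.14), Ctsg (0.029), Prtn3 (0.0531) and Serpini1 (-0.0242) turned. These sets hold fewer arrays. With 1 array left out, 3 serpins were higher and 0 lower each time, the serpin median was 1.41 to 1.66, and the counts over all genes were 134 to 517 higher and 65 to 152 lower (134 and 65 without IL2 replicate 2). Quantile normalization again gave 694 genes higher and 577 lower. Among the other serpins, limma called 1 lower, Serpinb8, with the replicate or title style block, after quantile normalization again or median centring and with the trended, robust variance model, and 1, Serpinb10, without untreated replicate 2. The cause of these changes was not tested. These settings for the other serpins, proteases, axes and markers were chosen after seeing the data. Serpinb1a kept a negative sign throughout (-0.62 to -0.17). The difference between Serpinb9 and Serpinb9b was -0.39 to -0.30 and that between Serpinb6a and Serpinb6b -1.44 to -1.22 over 11 alternatives, where with 1 array left out an exact p cannot go below 0.05. With the replicate block (2.55 for Serpinb9) no call of the 5 serpins changed and 554 genes were higher in all. The labels do not say whether a replicate number marks a shared source, and deviations of same-numbered arrays from their group means correlated at 0.46, -0.30 and 0.31 for replicates 2, 3 and 4, so that not every array was most like its own number.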
